A study of Mus musculus with 12 samples.

Results

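The 10 genes of the perineuronal net described here were followed by symbol through RNA sequencing of the mouse ventral hippocampus. The set holds the 4 lecticans Acan, Bcan, Ncan and Vcan, the link proteins Hapln1, Hapln2 and Hapln4, the crosslinker Tnr and the hyaluronan synthases Has2 and Has3. All 10 were found among 23183 gene symbols, and they were set beside Pvalb, the calcium-binding protein that marks the interneurons around which these nets are best known. Each of 4 groups held 3 wild-type male C57BL/6J mice, whose age the labels give as 8 weeks when naive. C mice (numbers 2, 8 and 12) were left unstressed. SS mice (18, 19 and 21) went through restraint for 2 hours a day over 14 days, were scored as stress-susceptible and stayed sedentary. SES (9, 10 and 12) and SER (6, 19 and 20) mice had the same restraint and voluntary wheel running, which is given as 14 days in the sample titles and as 4 weeks in the protocol text. SES mice were sorted by behaviour as effective responders to running and SER mice as ineffective responders, so the 3 stressed groups were chosen by an outcome and not by treatment alone. Mouse numbers recur between groups (12 and 19), and nothing in the labels ties the animals that share one.

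Perineuronal nets are lattices of extracellular matrix that wrap the soma and proximal dendrites of certain neurons, above all fast-spiking parvalbumin interneurons and, in the hippocampus, CA2 pyramidal cells. Hyaluronan strands made at the cell surface by the Has enzymes form the backbone. Lecticans, which carry chondroitin sulfate chains, bind that backbone, link proteins of the Hapln family hold them there, and tenascin-R, the product of Tnr, joins lecticans to each other. Neurons, astrocytes and oligodendrocyte-lineage cells each make some of these components, and Vcan and Hapln2 are also known from the matrix around nodes of Ranvier.

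Total estimated counts ran from 9323607 to 15707516 per library. Library differences that the groups do not fully explain touched several results. The choroid plexus transcript Ttr stood at 3546 CPM (counts scaled by the library total) in C mouse 2 and 5095 in SS mouse 18, against 2.78 to 20.1 in the other C and SS mice, and it lay between 36.5 and 4700 in the running mice. The nuclear transcript Malat1 stood at 3761 and 5257 CPM in SS mice 19 and 21, at 505 in SS mouse 18, at 263 to 506 in C mice and at 988 to 1974 in running mice. Of 12 lists of marker genes of cell types and nuclear RNA, none had a gene at 0 in all 3 mice of a group. The 6 CA2 markers summed to 313 to 546 CPM over all mice, and Pvalb itself was well measured, with 384 to 994 counts in every mouse.

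Per kilobase of transcript, the mean levels of the members ran from 0.0675 CPM for Has2 to 71.5 CPM for Bcan. Bcan (chr3:87987531-88002175, GRCm38), the brain-specific lectican brevican, stood highest at 71.5 ± 11.6 CPM per kb (SD, n = 12 mice), and Pvalb followed at 47.6 ± 11.4, with ranges that overlapped. Ncan (chr8:70093085-70120863), or neurocan, and Hapln4 (chr8:70083529-70090862), the link protein Bral2, came next at 25.0 ± 1.96 and 19.3 ± 3.70 and also overlapped. Hapln2 (chr3:88020558-88027511) at 7.48 ± 2.05 and Hapln1 (chr13:89540529-89611832) at 6.95 ± 1.16 overlapped, as did Vcan (chr13:89655309-89743027), or versican, at 4.16 ± 0.884 and Tnr (chr1:159523729-159931729) at 3.97 ± 1.20. Acan (chr7:79053226-79115099), which encodes aggrecan, the lectican most often used to define the net, reached only 0.376 ± 0.10 CPM per kb, and Has3 (chr8:106870242-106882902) 0.360 ± 0.0929. Has2 (chr15:56665627-56694546) had 2 to 6 counts per mouse, at or near the 3 counts that a library with none could hide, and was too low to test. Has1 and Hapln3, the family members outside the set, lay at 0.295 ± 0.147 and 0.222 ± 0.108. Lengths were those of the GENCODE M21 models matched to the RefSeq rows. Each of the 5 Vcan rows was divided by its own length, and both Bcan rows by that of the major row, since the minor row had no matched model.

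**Figure D1:**
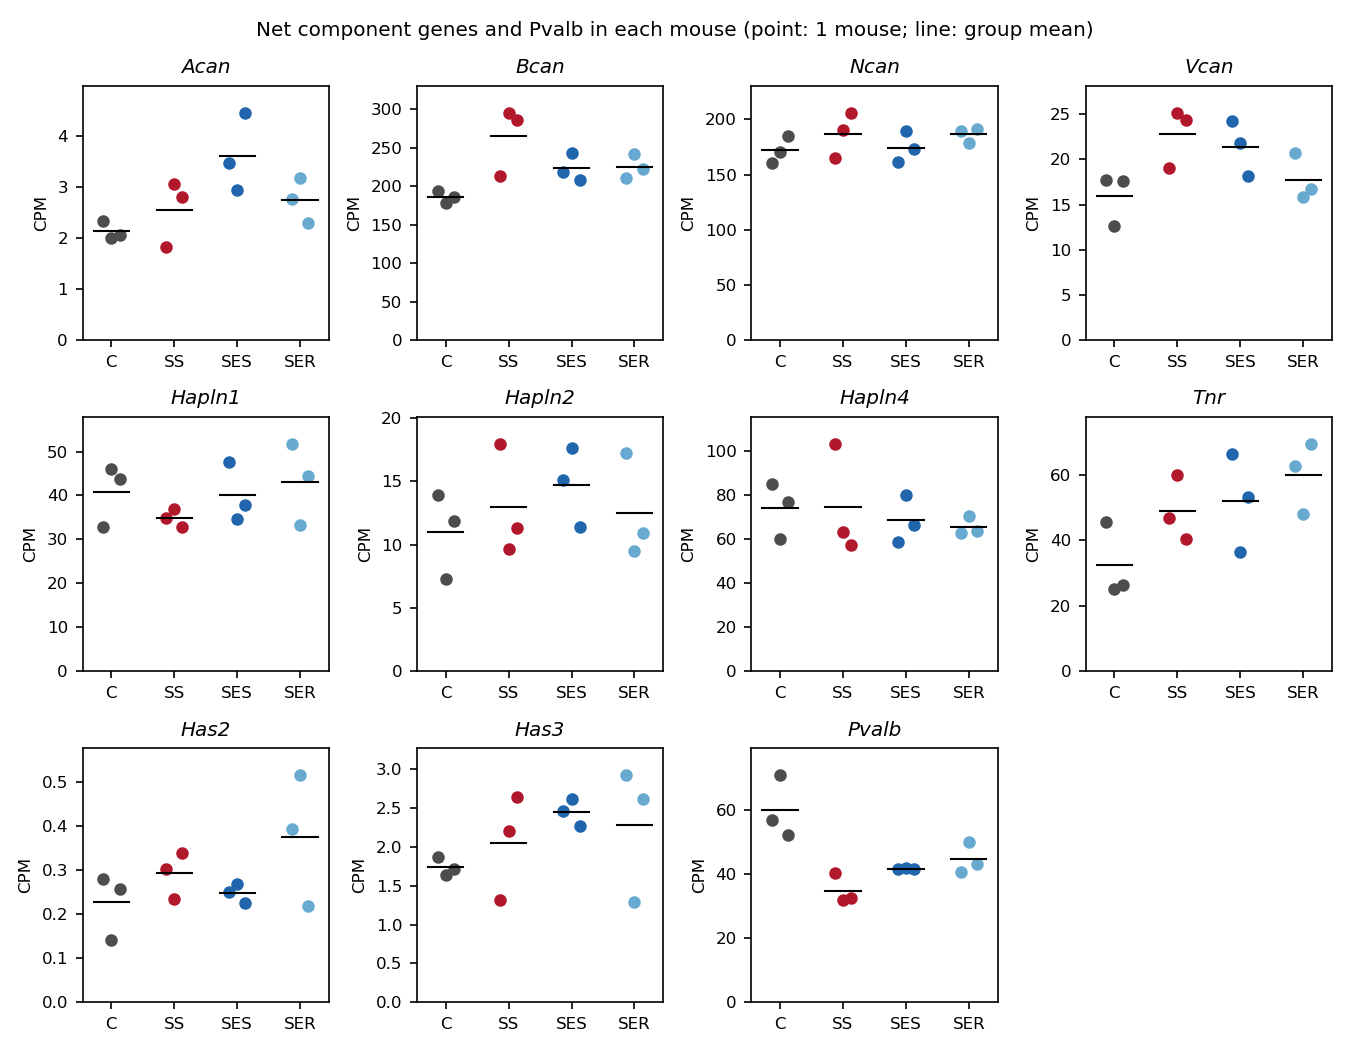
CPM of the 10 net genes and Pvalb in each of the 12 mice, by group, on linear axes that start at 0. Points are mice and lines are group means. Bcan in the 3 SS mice (213.7 to 294.6) lay above all C mice (178.6 to 193.2), while Pvalb in the SS mice (31.84 to 40.35) lay below all C mice (52.14 to 70.94).

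The comparison of SS with C mice sets restrained mice that proved susceptible beside unstressed mice, both sedentary. Restraint and selection for susceptibility cannot be told apart in it. Bcan was higher and Pvalb lower in SS mice. Bcan measured 193.2, 178.6 and 185.9 CPM in C mice 2, 8 and 12, and 213.7, 294.6 and 286.1 in SS mice 18, 19 and 21. All SS values lay above all C values, with mice 19 and 21 well above mouse 18. The group means were 264.8 ± 44.5 and 185.9 ± 7.30 CPM (SD, n = 3), a log2 fold change of 0.51 ± 0.115 (SE) with an adjusted p of 0.0248 by edgeR's quasi-likelihood test. In whole tissue, fewer cells of a type and less RNA per cell cannot be told apart, and the same holds for more. Bcan was the only one of the 9 tested members that passed, which is 1 of 9 against 9.83% of all genes tested in this comparison, a share near the background. At an unadjusted p under 0.05 the count was 3 of 9, against 28.2% of all genes.

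The 2 SS mice with the highest Bcan were also those with the high Malat1. Of the 6 nuclear noncoding RNA genes, 5 were called higher in SS than in C mice by edgeR, against 5.21% of all genes. With Malat1 as a covariate the Bcan change was 0.20 on the log2 scale with an adjusted p of 0.566 by edgeR, and no gene passed in that fit. The summed astrocyte markers (8 genes) were 6294 to 7052 CPM in C and 6105 to 6783 in SS mice, and the 8 oligodendrocyte precursor markers 293 to 336 and 305 to 369. Of the marker sums, those of dentate granule cells (7 genes, 324 to 385 CPM in C and 404 to 545 in SS mice) and microglia (6 genes, 329 to 333 and 276 to 313) lay apart between the groups, and their part in the Bcan change was not tested. The sums overlapped for CA1 and subiculum neurons (9 genes, 500 to 716 CPM in C and 422 to 620 in SS mice), thalamus (8 genes, 202 to 397 and 170 to 335), endothelium, mural cells and meninges (9 genes, 189 to 289 and 126 to 220), choroid plexus (8 genes, 134 to 4590 and 90.1 to 6586) and nuclear noncoding RNA (6 genes, 1305 to 1714 and 1270 to 11970). The Bcan call was lost without C mouse 8 (adjusted p = 0.101), C mouse 12 (0.0712), SS mouse 19 (0.124) or SS mouse 21 (0.102) in edgeR, and was kept with a larger change, 0.66, when C mouse 2 and SS mouse 18 were both left out. In that last fit 3 of 9 members passed, against 24.8% of all genes, with Vcan at 0.70 (adjusted p = 0.0173) and Tnr at 0.96 (0.0155). The fits without C mouse 8, SS mouse 19 or SS mouse 21 called 0.0% of all genes. The fit without C mouse 12 called 0.528%.

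Vcan had 17.68, 12.63 and 17.61 CPM in the C mice and 19.01, 25.10 and 24.37 in the SS mice. The groups did not overlap, SS mouse 18 again being the nearest to the C mice, yet the log2 difference of 0.52 ± 0.17 missed the threshold in edgeR (adjusted p = 0.0708). Bcan and Vcan were the 2 of 9 members whose groups did not overlap with SS higher, against 12.7% of all genes, and 0 of 9 lay wholly lower, against 14.2%. DESeq2's Wald test put Vcan past the threshold (adjusted p = 0.0437), where it called 15.3% of all genes. Tnr had 45.55, 25.05 and 26.46 CPM in C and 46.82, 60.07 and 40.41 in SS mice, a log2 difference of 0.61 ± 0.25 (adjusted p = 0.135 in edgeR). C mouse 2 stood apart from the other C mice and overlapped the SS range, and without that mouse the difference was 0.93 with an adjusted p of 0.0483.

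The other lecticans gave smaller differences that did not pass. Ncan was 172.1 ± 12.4 CPM in C and 187.1 ± 20.4 in SS mice, with a log2 difference of 0.12 ± 0.10. Acan had 2.338, 1.998 and 2.061 CPM in C mice and 1.820, 3.058 and 2.802 in SS mice, on 18 to 39 counts per mouse. SS mouse 18 lay below every C mouse and the other SS mice above, and the log2 difference was 0.28 ± 0.28.

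None of the link proteins passed. Hapln1, which binds lecticans to hyaluronan on net-bearing neurons, was 40.9 ± 7.0 CPM in C and 34.9 ± 2.08 in SS mice, the single member with a negative difference (-0.23 ± 0.17, adjusted p = 0.416 in edgeR). Hapln4, the partner of brevican at inhibitory synapses, measured 85.01, 59.88 and 76.96 CPM in the C mice and 102.9, 63.13 and 57.05 in the SS mice, and its log2 difference of 0.01 ± 0.20 turned to -0.31 without SS mouse 18. Hapln2, a link protein made by myelinating oligodendrocytes, measured 13.94, 7.279 and 11.85 CPM in C and 17.90, 9.646 and 11.29 in SS mice, with a log2 difference of 0.23 ± 0.30. SS mouse 18 had the highest Hapln2 and Hapln4 of all 12 mice, and the 10 myelin markers summed to 11060 CPM there against 3627 and 3484 in SS mice 19 and 21. The part of that library difference in the Hapln2 and Hapln4 values was not tested. Has3 was 1.74 ± 0.117 CPM in C and 2.05 ± 0.671 in SS mice on 13 to 31 counts, a log2 difference of 0.24 ± 0.34. Over the 9 members the median log2 difference was 0.24, against 0.02 over all genes tested, and 8 of 9 were above 0.

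Pvalb measured 57.05, 70.94 and 52.14 CPM in the C mice and 40.35, 31.84 and 32.60 in the SS mice. It fell by 0.78 on the log2 scale (SE 0.13, adjusted p = 0.0223 in edgeR), to 0.58 of its C level. The SS mice lay below every C mouse, and SS mouse 18, with the lowest Malat1 of its group, was the nearest. With Malat1 as a covariate the Pvalb change was -0.52 with an adjusted p of 0.413. The call was also lost without C mouse 8 (0.0892), SS mouse 19 (0.124) or SS mouse 21 (0.0835), in fits that called 0.0% of all genes.

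Among 18 genes known from parvalbumin interneurons, 3 fell in SS mice, 0 rose and 15 did not pass, with a median log2 difference of -0.12. Beside Pvalb these were Kcns3, a modulatory potassium channel subunit of fast-spiking cells (11.6 ± 1.47 to 6.58 ± 0.861 CPM, -0.82 ± 0.18, adjusted p = 0.0244 in edgeR), and Satb1, a chromatin organiser needed for the maturation of these and Sst interneurons (120 ± 39.0 to 73.3 ± 8.13 CPM, -0.71 ± 0.19, adjusted p = 0.0377). The background for a lower call was 4.63% of genes. In edgeR 5 of the 18 had an unadjusted p under 0.05, against 28.2% of all genes, a share near the background. Of the 8 marker genes of other interneuron classes 0 passed in edgeR, 1 did at an unadjusted p under 0.05 (28.2% of all genes did), and they summed to 828 to 905 CPM in C and 702 to 916 in SS mice. Without C mouse 8, SS mouse 19 or SS mouse 21 no gene of the parvalbumin list passed, and without C mouse 12 only 1 did. Those fits called 0.0% of all genes, except the one without C mouse 12, at 0.528%.

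Genes that build, cut or receive signals from the net were read from lists of their own. Of 21 net and matrix partners and receptors, 3 rose and 0 fell in SS mice, with a median log2 difference of 0.19, against 5.21% of all genes called higher. Nptxr, the receptor of the neuronal pentraxins that gather AMPA receptors at synapses on interneurons, measured 427.1, 356.0 and 444.8 CPM in C and 745.6, 674.6 and 566.5 in SS mice (0.69 ± 0.13, adjusted p = 0.0223 in edgeR). Ptprs, the receptor tyrosine phosphatase that binds chondroitin sulfate, measured 302.9, 248.9 and 300.0 CPM in C and 352.4, 456.7 and 476.0 in SS mice (0.59 ± 0.12, adjusted p = 0.0226). Its relative Ptprf, known as LAR, measured 39.19, 44.10 and 37.97 CPM in C and 56.32, 65.17 and 60.96 in SS mice (0.59 ± 0.11, adjusted p = 0.0223). In all 3 genes the groups did not overlap. Of the 21 genes, 7 lay wholly higher in SS mice, against 12.7% of all genes, and 1 wholly lower, against 14.2%. Nptxr was highest in SS mouse 18, the mouse without raised Malat1, while Ptprs was lowest there. None of the 3 passed without C mouse 8, SS mouse 19 or SS mouse 21, and without C mouse 12 only Nptxr did. These fits called 0.0% of all genes, apart from the one without C mouse 12, which called 0.528%. Under the Malat1 covariate, where no gene at all passed, Nptxr was at 0.79, Ptprf at 0.56 and Ptprs at 0.23. Without SS mouse 18, 7 of 21 passed higher and 1 lower, in a fit that called 13.6% of all genes higher and 12.2% lower. DESeq2 with all mice called 5 of 21 higher, against 7.94%.

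No gene of the other 3 lists passed in edgeR in SS against C mice. Of 17 tested lectican proteases and inhibitors the membrane metalloproteases Mmp17 (0.39 ± 0.12, adjusted p = 0.0635) and Mmp16 (0.58 ± 0.21, 0.0859) came nearest. Among 19 tested genes of chondroitin sulfate synthesis these were the polymerising factor Chpf (0.34 ± 0.11, 0.0659) and the linker enzyme B4galt7 (0.42 ± 0.17, 0.115). Among 8 tested genes of hyaluronan synthesis, turnover and receptors they were the hyaluronidase Hyal1 (0.77 ± 0.29, 0.103) and the hyaluronan-degrading factor Cemip (0.60 ± 0.23, 0.104). The list medians were 0.20, 0.13 and 0.14. At an unadjusted p under 0.05 the counts were 4, 3 and 2, each share below the 28.2% of all genes. DESeq2 called 1, 1 and 0 of them, against 15.3% of all genes. With C mouse 2 and SS mouse 18 left out, 2 genes passed higher and 1 lower among the proteases, 3 and 1 in chondroitin sulfate synthesis, and 2 and 1 in the hyaluronan list, in a fit that called 12.9% of all genes higher and 11.9% lower.

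**Figure D2:**
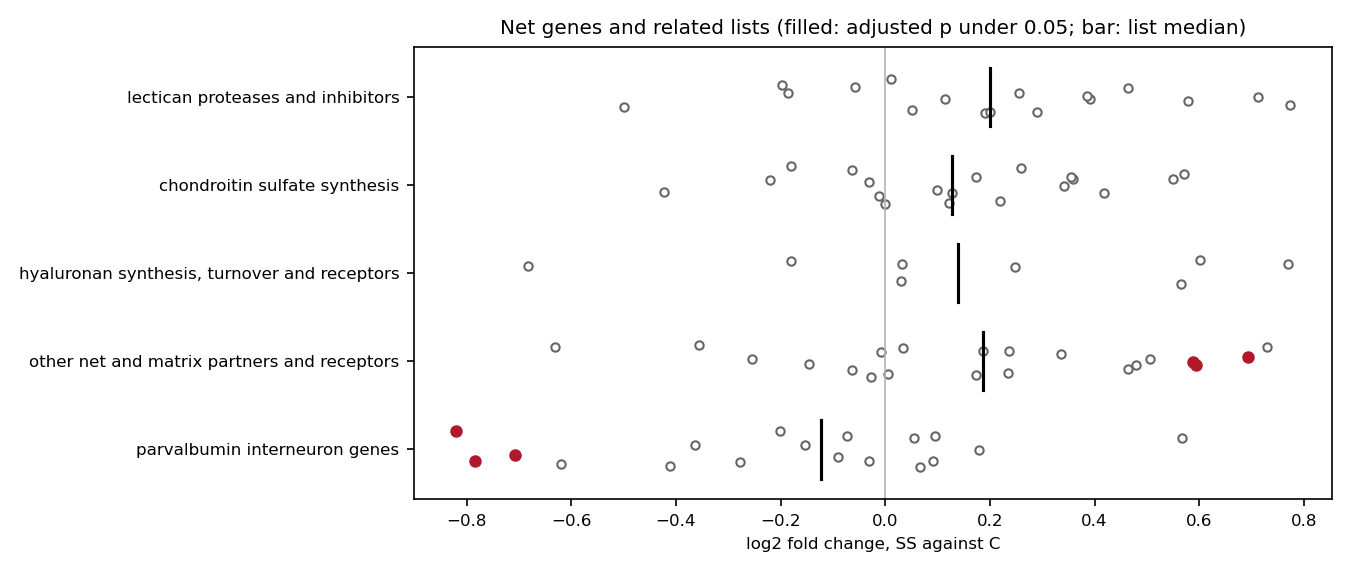
Log2 fold change of SS against C mice for each tested gene of 5 lists related to the net, on a linear axis. Filled points passed at an adjusted p under 0.05 in edgeR and black bars are list medians. The filled points are Nptxr, Ptprf and Ptprs on the higher side and Kcns3, Pvalb and Satb1 on the lower side.

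Running was compared with its absence among the stressed mice. No member passed in SES or SER against SS mice, or in the mean of both running groups against SS. In edgeR the counts at an unadjusted p under 0.05 were 0, 0 and 1 of 9, against 9.01%, 18.2% and 17.2% of all genes, and DESeq2 and limma-voom also called 0 members. The shares of all genes called by edgeR were 0.0%, 0.0481% and 0.0413%. Bcan measured 218.2, 243.5 and 208.4 CPM in SES and 211.0, 241.5 and 222.2 in SER mice. These 6 values lay between the C range and SS mice 19 and 21 and enclosed SS mouse 18. The log2 differences from SS were -0.25 ± 0.11 in SES (adjusted p = 0.553 in edgeR) and -0.24 ± 0.11 in SER mice (0.297), and -0.24 ± 0.10 for both together (0.239). Without SS mouse 18 the 3 differences were -0.38, -0.36 and -0.37 with adjusted p-values of 0.0196, 0.0142 and 0.00622 in edgeR, in fits that called 8.69%, 16.5% and 16.8% of all genes.

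Pvalb measured 41.60, 41.90 and 41.79 CPM in SES and 40.61, 50.19 and 43.20 in SER mice. Each running mouse lay above each SS mouse, by little in SER mouse 6, and below each C mouse. The log2 difference of both running groups from SS was 0.31 ± 0.12 (adjusted p = 0.211 in edgeR) and did not pass, while 3.34% of all genes lay wholly higher in that comparison. No net member was free of overlap between running and SS mice, against 6.04% of all genes. Vcan measured 24.23, 21.82 and 18.22 CPM in SES and 20.74, 15.90 and 16.69 in SER mice, and differed from SS by -0.09 ± 0.17 and -0.36 ± 0.17 (adjusted p = 0.888 and 0.291). Hapln1 was 40.1 ± 6.74 CPM in SES and 43.1 ± 9.31 in SER mice, above SS by 0.20 ± 0.17 and 0.31 ± 0.17 without passing. Its highest value, 51.65, was in SER mouse 6 and its lowest running value, 33.18, in SER mouse 19.

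Nor did any gene of the 5 lists pass between running and SS mice in edgeR. Among the lectican proteases and inhibitors the nearest was Timp4, a tissue inhibitor of metalloproteases, at 0.33 ± 0.10 for both running groups together (adjusted p = 0.149) and at 0.44 ± 0.12 in SER mice (0.113). Cemip was at -0.57 ± 0.19 (0.174). Kcnc1, a fast potassium channel of parvalbumin interneurons, was at -0.26 ± 0.09 (0.169), and Rtn4r, the Nogo receptor, which also binds chondroitin sulfate, at -0.27 ± 0.10 (0.214). At an unadjusted p under 0.05 the counts for both running groups together were 3 of 17 proteases and inhibitors, 0 of 19 chondroitin sulfate genes, 1 of 8 hyaluronan genes, 3 of 21 partners and 2 of 18 parvalbumin interneuron genes, against 17.2% of all genes. DESeq2 called 0 in each, against 2.83%.

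**Figure D3:**
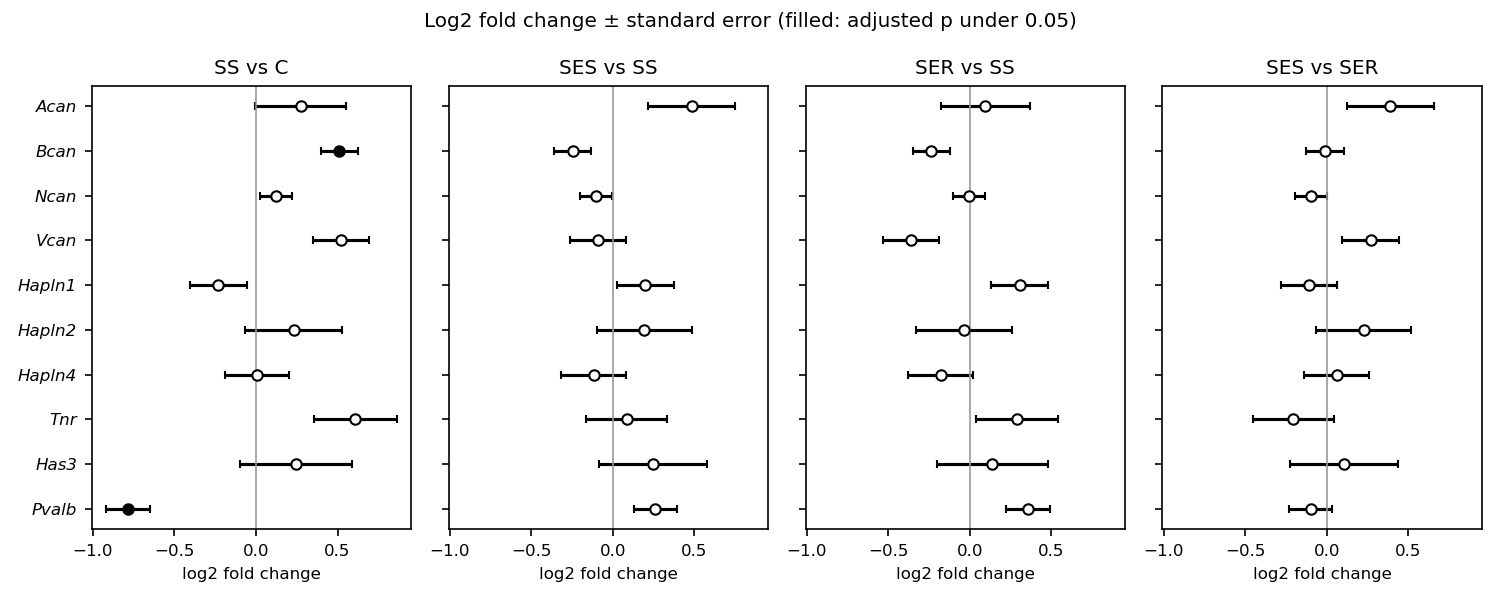
Log2 fold change with its standard error for the 9 tested net genes and Pvalb in 4 comparisons, on linear axes. Filled points passed at an adjusted p under 0.05. These are Bcan (0.51) and Pvalb (-0.78) in SS against C mice, and no point is filled in the other 3 panels.

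Effective and ineffective responders were compared with each other, which is also the test of whether their differences from SS differ. None of the 9 members passed, against 0.0275% of all genes in edgeR, and 0 of 9 did at an unadjusted p under 0.05, against 3.72%. DESeq2 and limma-voom called 0 members. Acan showed the largest estimate, 3.462, 2.945 and 4.443 CPM in SES against 2.760, 3.180 and 2.291 in SER mice, a log2 difference of 0.39 ± 0.27 with ranges that overlapped, and 0 of 9 members were free of overlap, against 10.8% of all genes. Tnr measured 66.40, 36.62 and 53.16 CPM in SES and 62.61, 48.13 and 69.38 in SER mice (-0.20 ± 0.25). Bcan was almost equal on average, 223 ± 18.1 and 225 ± 15.4 CPM. A p that misses the threshold with 3 mice a group does not show that the responders were alike.

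Set against unstressed mice, the running mice had higher average levels of most members, again without a call. SES mice were above C mice without overlap in 4 of 9 members, Acan, Bcan, Vcan and Has3, against 12.8% of all genes, and SER mice in 2 of 9, Bcan and Tnr, against 12.6%. The edgeR calls were 0 of 9 in both, against 0.179% and 1.19% of all genes. At an unadjusted p under 0.05 the counts were 4 and 2 of 9, against 16.2% and 18.6%. With Malat1 as a covariate these counts were 0 and 1 of 9, against 12.7% and 18.5%. In SES mice Acan was 0.76 ± 0.27 above C (adjusted p = 0.213), Tnr 0.69 ± 0.25 (0.225), Vcan 0.43 ± 0.17 (0.256) and Bcan 0.27 ± 0.11 (0.282). In SER mice Tnr was 0.90 ± 0.25 above C (0.0964) and Bcan 0.27 ± 0.11 (0.225). DESeq2 called Tnr in SER against C mice (adjusted p = 0.0124) and no member in SES against C, where it called 5.39% and 2.83% of all genes. Without C mouse 2 and SS mouse 18, edgeR called Tnr against C in SES (1.007, adjusted p = 0.0304) and in SER mice (1.21, 0.0168). That is 1 of 9 members in each, against 6.31% and 5.41% of all genes. Pvalb was below C on average, by -0.52 ± 0.13 in SES (adjusted p = 0.124) and -0.43 ± 0.13 in SER mice (0.114) on the log2 scale, without passing in edgeR, and DESeq2 called both (0.0157 and 0.0493). The summed astrocyte markers were 8718 to 10010 CPM in SER mice against 6294 to 7052 in C mice. The CA2 sum lay wholly lower, at 313 to 370 CPM in SER against 389 to 546 in C mice. Sums for CA1 and subiculum, microglia and nuclear noncoding RNA lay wholly higher in SER mice, and that for endothelium, mural cells and meninges wholly lower. In SES mice the dentate granule cell sum, 431 to 485 CPM, lay wholly above that of C mice, 324 to 385. So did nuclear noncoding RNA, at 2856 to 3949 against 1305 to 1714. The thalamus sum lay wholly lower in SES mice, at 163 to 193 against 202 to 397. The part of these sums in the member values was not tested. Nptxr, at 645.9, 632.8 and 696.9 CPM, was the only gene of the 5 lists called in SER against C mice (0.69 ± 0.13, adjusted p = 0.0345 in edgeR), where 0.853% of all genes were called higher. In the lists without a call there, the smallest p-values were those of Timp4 (0.45 ± 0.12, 0.0780) and the neuregulin receptor Erbb4 (1.26 ± 0.33, 0.0819). In SES against C mice none of the 5 lists had a call, Nptx2, a neuronal pentraxin, being at 0.82 ± 0.19 (0.112), Ptprf at 0.48 ± 0.11 (0.112) and Hyal1 at 1.00 ± 0.28 (0.142). Over all 4 groups in 1 test, 0 of 9 members passed, against 0.206% of all genes, with Bcan at an adjusted p of 0.0927 and Pvalb at 0.0614 in edgeR. At an unadjusted p under 0.05 the count was 3 of 9, against 23.8%. DESeq2 called 2 members there, against 12.8% of all genes, and limma-voom 0. These comparisons share their C or SS mice with those above.

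Vcan is spliced into forms that differ in how many chondroitin sulfate chains they can carry, and some of its isoform rows differed in share between running and sedentary mice. A common upstream exon (exon 6, chr13:89712205-89712498, minus strand, GRCm38) is joined to the alpha exon of 2880 bases (chr13:89702918-89705797) in the V2 form, to the beta exon of 5217 bases (chr13:89688285-89693501) in the V1 form, or past both to an exon of 114 bases (chr13:89685079-89685192) in the V3 form. V2 is the main form of the adult brain, and V3 lacks both chain-bearing exons. The coding junctions that set these rows apart are given from the GENCODE M21 models matched to the deposited RefSeq rows, with the shared exon in lower case and the first 20 bases of the exon that follows in capitals.
V2 junction: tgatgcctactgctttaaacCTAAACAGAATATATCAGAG
V1 junction: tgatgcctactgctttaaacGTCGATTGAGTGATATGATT
V3 junction: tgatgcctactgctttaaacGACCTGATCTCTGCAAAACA

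The V3 row held 78, 62 and 84 estimated counts in C mice 2, 8 and 12 and 61, 50 and 74 in SS mice 18, 19 and 21. It held 25, 30 and 8 in SES mice 9, 10 and 12 and 19, 24 and 0 in SER mice 6, 19 and 20. Its share of the Vcan count was 31.9 ± 9.83% (SD, n = 6) in sedentary mice, from 15.6% to 41.3%, and 6.53 ± 4.52% in running mice, from 0% to 12.97%. Every running mouse lay below every sedentary mouse. The sedentary groups were apart as well, at 35.03% to 41.27% in C and 15.62% to 32.45% in SS mice. All running mice had also been restrained, so restraint and running cannot be told apart against C mice. The V2 row made up 44.1 ± 5.11% in sedentary and 69.5 ± 9.91% in running mice, again without overlap (35.5% to 50.5% and 58.6% to 86.9%), though in CPM the 2 sets overlapped, with 11.17 in SER mouse 19 below 11.37 in SS mouse 19. The V1 row did not separate them, at 20.1 ± 8.19% and 21.3 ± 6.44%, and the V0 row, with both exons, was above 0 only in SS mouse 19 and SES mouse 9.

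This split was noticed after the values had been seen, and it is given as a description. In CPM the V3 row was likewise lower in every running than in every sedentary mouse, as were 0.255% of the 20402 transcript rows tested. In edgeR on transcript rows the V3 row differed by -2.07 ± 0.78 on the log2 scale between running and SS mice (adjusted p = 0.370) and the V2 row by 0.44 ± 0.16 (0.366), with 0.0343% of rows called. The V2 row was 0.96 ± 0.19 above C in SES (0.157) and 0.88 ± 0.19 in SER mice (0.101), where 0.0196% and 0.123% of rows were called. Counting error alone is wide here. The lowest sedentary V3 share, 15.6% in SS mouse 19, has a 95% Wilson interval of 12.1% to 20.0%, and the highest running share, 12.97% in SER mouse 19, one of 8.88% to 18.6%. For the 0 of 153 counts in SER mouse 20 the 95% Wilson interval runs from 0% to 2.45%. Intervals cover counting error only, and how the deposited counts divide reads among isoforms is not given in the sources used here.

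**Figure D4:**
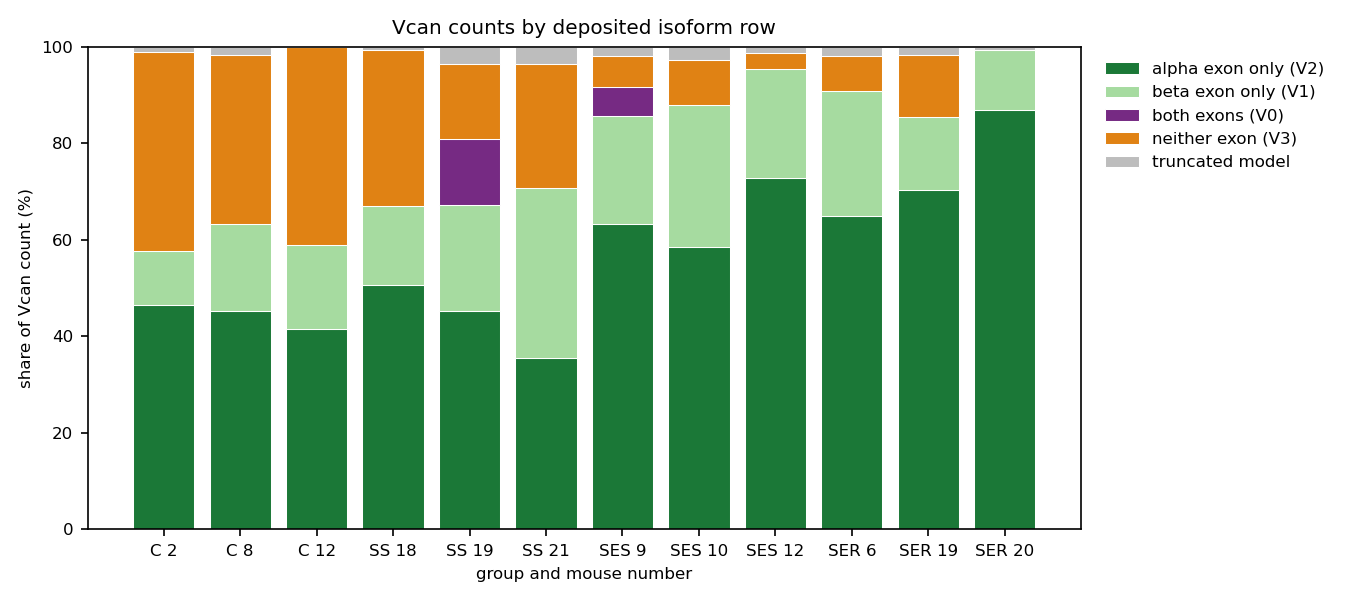
Share of the Vcan count in each of 5 deposited isoform rows, in percent, for each mouse, labelled by group and mouse number. The V3 share lies between 15.6% and 41.3% in the 6 sedentary mice (C and SS) and between 0% and 12.97% in the 6 running mice (SES and SER), and the V2 share is larger in all running mice.

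Bcan also has 2 rows. The minor row carried 12.9 ± 2.09% of the Bcan count over all mice and had 19.6 ± 3.69 CPM in C, 36.4 ± 7.63 in SS, 33.9 ± 2.07 in SES and 27.6 ± 2.84 in SER mice. Its log2 difference between SS and C was 0.89 ± 0.18 and that of the major row 0.46 ± 0.12, and neither passed among transcript rows in edgeR (adjusted p = 0.0577 and 0.0867), where 0.0098% of rows were called.

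Across the 12 mice the 9 tested members were set against Pvalb on the log2 CPM scale, as 9 relations in 1 family. Permutations shuffled all 12 mice without regard to group, so their p-values do not tell differences between groups from covariation within groups. Vcan was lower where Pvalb was higher, with Pearson's r = -0.872 (permutation p = 0.00039, adjusted p = 0.00351) and Spearman's rho = -0.853 (permutation p = 0.00080, adjusted p = 0.0072). Bcan gave r = -0.828 (permutation p = 0.0010, adjusted p = 0.0045) and rho = -0.671 (permutation p = 0.0201, adjusted p = 0.0904). Without the 2 mice farthest from the median of Pvalb, r was -0.797 for Vcan (permutation, adjusted p = 0.0377) and -0.768 for Bcan (0.0452), while rho was -0.818 (0.0543) and -0.442 (0.611), so that by rank neither passed. After each group's mean was subtracted, r was -0.841 for Vcan, -0.723 for Has3, -0.561 for Ncan and -0.408 for Bcan, with the other 5 members between -0.336 and 0.245. Among all other genes tested, 0.791% had an r with Pvalb as low as that of Vcan and 1.89% one as low as that of Bcan. With the single V2 row in place of the sum, r for Vcan was -0.578 (permutation, adjusted p = 0.149).

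The other 7 members gave values of r between -0.577 for Tnr and 0.204 for Hapln1, none past the threshold, with the smallest permutation adjusted p at 0.149. Hapln4 gave r = 0.161 and Acan r = -0.414. No member passed with a positive r. The 12 mice share the groups and the spread of Malat1 given above, and the part of Malat1 in these values was not tested.

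**Figure D5:**
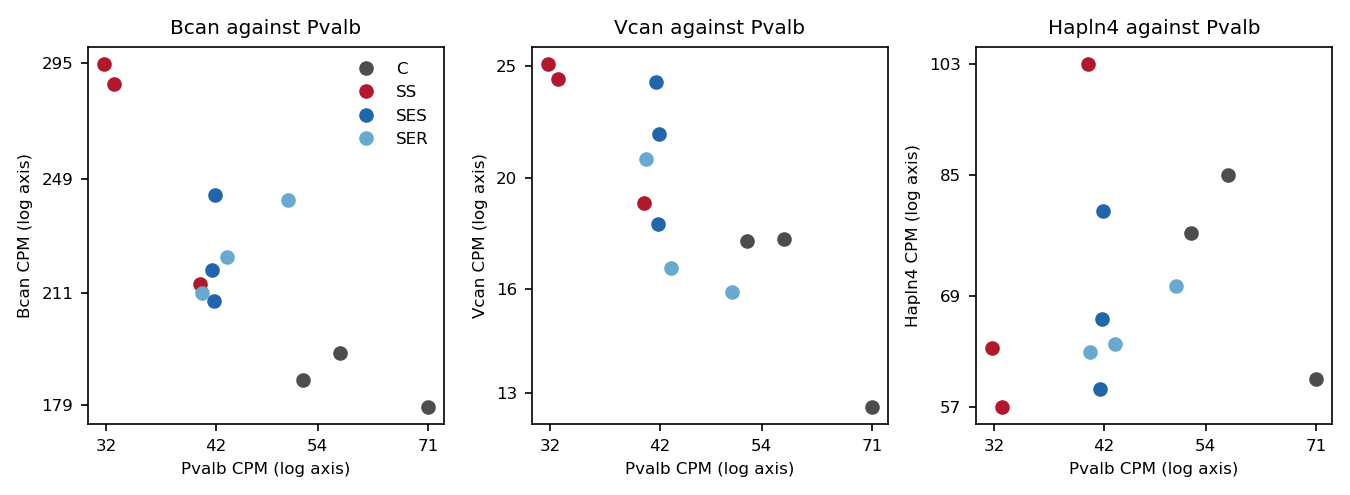
Bcan, Vcan and Hapln4 against Pvalb, in CPM on log axes, with 1 point per mouse coloured by group. Bcan (r = -0.828) and Vcan (r = -0.872) are lower in mice with more Pvalb, while Hapln4 (r = 0.161) shows no such slope.

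Each lectican gene lies next to a link protein gene with no protein-coding gene between them in the annotation. Acan and Hapln3 are 1927 bases apart, Ncan and Hapln4 2222, Bcan and Hapln2 18382 and Vcan and Hapln1 43476. The 3 pairs of members gave no relation past the threshold across the 12 mice. Pearson's r was -0.01 for Bcan with Hapln2, -0.40 for Ncan with Hapln4 and -0.15 for Vcan with Hapln1 (permutation, smallest adjusted p = 0.604 over 3 relations), with Spearman's rho of -0.06, -0.38 and -0.14 (smallest adjusted p = 0.681). Without the 2 mice farthest from the median, r was -0.36, 0.08 and -0.55 (permutation, smallest adjusted p = 0.306).

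Over all genes tested, those whose log2 CPM across the 12 libraries was most like that of a member were, for Acan, Nphs1 (r = 0.871), Runx2 (0.832) and Kansl1 (0.831). For Hapln1 they were Aggf1 (0.910), 2210408F21Rik (0.893) and Sbk1 (0.853), and for Hapln4 Ift57 (0.912), H2-Eb1 (0.909) and Epdr1 (0.905). For Bcan they were Zfp57 (0.977), Med24 (0.977) and Atp13a1 (0.969), and for Pvalb Smim13 (0.966), Cmpk1 (0.963) and Esd (0.961). None of these is a net gene. The values are descriptions over 12 libraries that share their groups.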

How the data were processed

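Estimated counts per RefSeq transcript (33299 rows) were deposited by the authors as 1 table of whole numbers per mouse, not normalized. TopHat and the build mm10 were used, per the submitters' processing notes, and how reads were counted is not given in the sources used here, nor is any use of strand or the annotation release. The NEBNext Ultra II Directional chemistry was applied to 1.3 µg of total RNA, per the labels' protocols. Without the strand setting, reads of overlapping or antisense genes cannot be told apart.

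Rows were summed per symbol. No value needed rounding, no row was blank, and no 2 libraries of a group agreed within sampling noise. All 12 libraries entered 1 fit in edgeR 4.0.16 (R 4.3.3), with TMM factors (0.97 to 1.039), filterByExpr (minimum count 10, 14541 genes kept), the quasi-likelihood F test (8 residual degrees of freedom) and Benjamini-Hochberg adjustment over all genes at 0.05. The biological coefficient of variation was 15.7%. CPM values use the library totals of the kept genes multiplied by the TMM factors, and log2 CPM adds a prior count of 2. Correlations used 100000 permutations, two-sided. Alternatives were DESeq2 1.42.0, limma 3.58.1 (voom), other scalings and filters, pair-wise fits, transcript rows, a Malat1 covariate and left-out mice. The fits were tested on simulated data.

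The members and lists were chosen with earlier results of these data known. Named genes are all members, Has1, Hapln3, Pvalb, the called genes of each list with the smallest p (up to 4, or 2 where none passed) and the 3 genes most like Acan, Bcan, Hapln1, Hapln4 and Pvalb. The 12 marker lists are other interneuron classes, CA2, CA1 and subiculum, dentate granule cells, astrocytes, oligodendrocyte precursors, myelinating oligodendrocytes, thalamus, choroid plexus, endothelium with mural cells and meninges, microglia, and nuclear noncoding RNA. Replicates are mice with their own numbers. Junction sequences come from GENCODE M21 (GRCm38), and gene positions from RefSeq on GRCm38.p6.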

Additional observations from a re-analysis of the deposited data

How the results depend on the processing

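No paired analysis was possible because the groups compared share at most 1 mouse number. Of the net genes, SS against C mice gave 1 call, which became 2 with DESeq2's Wald test, 3 when C mouse 2 and SS mouse 18 were dropped, and 0 with only the 2 groups in the fit, with transcript rows as deposited or with Malat1 as a covariate. Leaving out 1 mouse gave 0 to 2 calls. The other comparisons gave 0 calls, which became 1 without C mouse 2 and SS mouse 18 in SES against SS, SER against SS, SES against C, SER against C and running against SS, and 2 in the test over all 4 groups. With DESeq2 they became 1 in SER against C mice and 2 over all 4 groups. Leaving out 1 mouse gave 0 to 1 in SES against SS, SER against SS, running against SS and over all 4 groups, and 0 in SES against SER, SES against C and SER against C mice. Of the 9 relations with Pvalb, 2 passed by Pearson's r, and 1 with transcript rows, against 1 and 0 by Spearman's rho. Over all genes, the 1430 calls of SS against C mice ranged from 0 to 3797 with 1 mouse left out, were 0 with the 2 groups alone or with Malat1, 2219 with DESeq2 and 3644 once C mouse 2 and SS mouse 18 were left out together. The counts over all genes, in the order edgeR, DESeq2 and edgeR with those 2 mice left out, were 0, 17 and 1430 for SES against SS, 7, 558 and 2573 for SER against SS, 6, 411 and 2662 for running against SS, 26, 412 and 929 for SES against C, 173, 784 and 796 for SER against C, and 30, 1857 and 3357 over all 4 groups. These settings differ in mice or degrees of freedom, and the cause of each shift was not tested.

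Directions that turned belong to differences that had not passed. In SS against C mice, log2 differences turned with the Malat1 covariate for Acan (-0.34), Ncan (-0.068) and Has3 (-0.33). For Hapln4 they turned with no filter (-0.0036), limma-voom (-0.030) and without C mouse 2 and SS mouse 18 (-0.20), and ran from -0.31 to 0.17 with 1 mouse left out. With 1 mouse left out Hapln2 ran from -0.074 to 0.43 in SS against C mice, and in SES against SS mice Vcan ran from -0.20 to 0.014 and Tnr from -0.12 to 0.28. The V2 row of Vcan, taken in place of the sum, was higher than in SS mice in SES (0.49), SER (0.40) and all running mice (0.44). The Bcan change in SS against C mice stayed between 0.43 and 0.63 with 1 mouse left out and the Pvalb change between -0.91 and -0.65. Counts of 2 to 6 for Has2 and 13 to 59 for Acan and Has3 limit what could be seen for these genes.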
